A study of Homo sapiens with 2 samples.

Results

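The human genes for neurotransmitter receptors and for proteins of synaptic vesicle fusion were examined for peaks of WSTF. This bromodomain protein, encoded by BAZ1B, works with the remodelling ATPase SMARCA5. Members were all protein-coding genes of the RefSeq GRCh38 table whose symbols start with GRIA, GRIK, GRIN, GRM, GABR, CHRN, CHRM, GLRA, HTR, SYT, STX, SNAP or CPLX and go on with a digit, or with a letter and a digit. HTR5A, CPLX2, STX1A and the HTRA protease genes were left out. The rule gave 127 of 20037 protein-coding genes. It chose symbols, not functions: it also took in 5 SNAPC genes, whose products form the snRNA-activating complex of transcription, and 5 SYTL genes, whose products bind RAB27 in secretory cells. The words receptor and synaptic vesicle thus cover at most the other 117.

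The study used chromatin immunoprecipitation with sequencing on SW620, a cultured line grown from a colorectal cancer metastasis, with an antibody to WSTF. Its samples were 1 library labelled SW620-IP and 1 labelled SW620, with no treatment, genotype or age given, and the label of the second does not say whether it is input DNA. The series title names a knockdown of WSTF and the design text an overexpression, and neither says how much WSTF these cells held. Results rest on 1 deposited list of 2697 summits (1 base per peak, hg38) without replicates, and the read depth is unknown. Intervals on shares are exact 95% binomial intervals and cover counting error only. No gene expression was measured, so the labelled cell type could not be checked against markers.

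Chemical synapses work by calcium-triggered fusion. Syntaxins and SNAP proteins on the target membrane form a SNARE bundle with a vesicle SNARE, complexins clamp and assist that bundle, and synaptotagmins sense calcium. The transmitter then reaches ligand-gated channels (AMPA, kainate, NMDA, GABA-A, glycine, nicotinic and HTR3 receptors) or G-protein-coupled receptors (GRM, CHRM and most HTR genes). Many syntaxins, by contrast, act in the Golgi, endosomes, autophagosomes or the endoplasmic reticulum of nearly every cell, whereas most of the receptors are best known from neurons and muscle.

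Few of these genes carried a WSTF summit. A summit inside the gene or up to 1 kb outside it was found at 10 of the 127 members (7.87%, interval 3.84 to 14), where 13.8% of all protein-coding genes had one. The members with a summit were STX7, SNAP47, SYTL3, STX4, SYT7, CHRM4, STX18, GRIN2D, GRIN1 and STX17. The share over all genes lies inside the members' interval. The rule left out HTR5A, CPLX2 and STX1A, which each have a summit, and their removal lowered the members' share. Counting only summits within 1 kb of an outer gene end gave the same 10 members, against 11.6% of all protein-coding genes. SNAP47 and SYT7 held 2 summits each and the others 1, for 12 summits in all. Members without a summit numbered 117; with the depth unknown, they are not shown to lack WSTF.

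**Figure D1:**
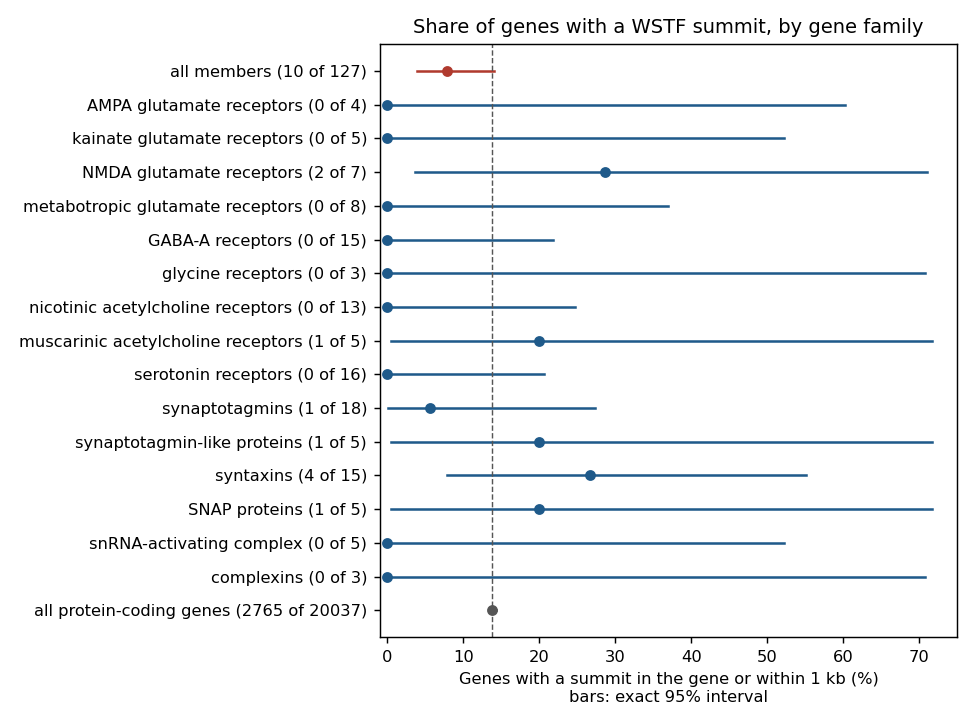
Percentage of genes that have a summit inside them or up to 1 kb away (x axis) for all members, each family and all protein-coding genes; points are shares, bars exact 95% intervals and the dashed line the 13.8% of all protein-coding genes. The syntaxins stand at 4 of 15, the GABA-A and serotonin receptors at 0 of 15 and 0 of 16, and the bars of the small families span most of the axis.

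Receptors made up most of the members and few of those with a summit. Of 76 receptor genes 3 had a summit (3.95%, interval 0.82 to 11.1), an interval that ends below the 13.8% of all protein-coding genes, and 7 of the 9 receptor families had none among their members. HTR5A, a serotonin receptor gene left out by the rule, has a summit. The receptor share, its interval, the 7 families and the 0 of the serotonin receptors thus hold for the members alone. Neighbouring receptor genes share their surroundings, so they are not independent and the interval is too narrow to that extent. The families without a summit were the AMPA receptors (0 of 4), the kainate receptors (0 of 5), the metabotropic glutamate receptors (0 of 8), the GABA-A receptors (0 of 15, interval to 21.8%), the glycine receptors (0 of 3), the nicotinic receptors (0 of 13, interval to 24.7%) and the serotonin receptors (0 of 16, interval to 20.6%). Among them were GRIA1 to GRIA4, GRIK1 to GRIK5, GLRA1 to GLRA3, the metabotropic glutamate receptor genes GRM2 and GRM5, the GABA-A receptor genes GABRA2, GABRA4, GABRB1, GABRG1 and GABRR1 to GABRR3, the muscle and neuronal subunit genes CHRNA1 to CHRNA7, CHRNA9, CHRNA10 and CHRNB1 to CHRNB4, and 16 serotonin receptor genes (HTR1A, HTR1B, HTR1D, HTR1E, HTR1F, HTR2A, HTR2B, HTR2C, HTR3A to HTR3E, HTR4, HTR6 and HTR7). Among the members that encode ligand-gated channels, the HTR3 genes included, 2 of 52 genes had one, both of the NMDA family. Channel genes outside the symbol rule are not in this count, and 1 of them, the ATP-gated channel gene P2RX5, has a summit.

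Among the members, CHRM4 was the receptor gene with a summit at its own start. It encodes the M4 muscarinic acetylcholine receptor, which couples to inhibitory G proteins. The gene lies on the minus strand of chromosome 11 from 46383789 to 46391776. Its summit, at 46391867, scored 3.53 and stood at position -91 relative to the listed start, with no other protein-coding gene within 1 kb. The other muscarinic genes, CHRM1, CHRM2, CHRM3 and CHRM5, had none, and the closest of them, CHRM1, lay 52.6 kb from a summit.

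Both NMDA receptor summits lay outside the gene and beside a neighbour. GRIN1, which encodes the subunit that every NMDA receptor needs, spans 137139154 to 137168756 on chromosome 9; its summit at 137169486 was 730 bp beyond the outer end and scored 1.73. The same summit was 565 bp inside the listed start of LRRC26, a gene for an accessory subunit of BK potassium channels. GRIN2D, which encodes a glutamate-binding NMDA subunit, spans 48393668 to 48444931 on the plus strand of chromosome 19. Its summit at 48445606 scored 2.13, 675 bp past the end of the gene and 51938 bp from its listed start. It stood at position -377 relative to the start of GRWD1, a WD-repeat gene of ribosome assembly. These 2 were the summits nearest to the outer limit of the 1 kb window. The other NMDA genes, GRIN2A, GRIN2B, GRIN2C, GRIN3A and GRIN3B, had no summit, with GRIN2C at 11.7 kb as the nearest.

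The SYT, STX, SNAP and CPLX genes had a summit at 6 of 41 members (14.6%, interval 5.57 to 29.2), close to the 13.8% of all protein-coding genes. The interval overlaps that of the receptors, and the difference between these classes was not tested. The syntaxins held 4 of these (4 of 15, 26.7%, interval 7.79 to 55.1), the SNAP proteins 1 of 5, the synaptotagmins 1 of 18 (5.56%, interval 0.14 to 27.3) and the complexins (CPLX1, CPLX3 and CPLX4) 0 of 3. These counts rest on the rule: CPLX2 and STX1A, which it left out, each have a summit.

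STX7 encodes a syntaxin of late endosomes. On the minus strand of chromosome 6 (132445867 to 132513472), its summit at 132512891 had the highest score of any member, 5.81, and stood at position -108 relative to the nearest of 3 listed starts. STX4 encodes a syntaxin of the plasma membrane that also serves regulated exocytosis outside neurons. Its summit, at 31033123 on chromosome 16, scored 4.30 and was 28 bp inside the gene start (31033095 to 31040168, plus strand).

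STX18, a syntaxin of the endoplasmic reticulum, lies on the minus strand of chromosome 4 (4418968 to 4542343). Its summit at 4542108 scored 2.26 and stood at position -60 relative to the nearest listed start. It was also at -23 relative to the start of LOC124900165 and no more than 1 kb from the antisense gene STX18-AS1. STX17, which drives fusion of autophagosomes with lysosomes, had the lowest score of the members, 1.67, at 99906740 on chromosome 9. That summit was 86 bp inside an outer end of the gene (99906654 to 99974534) and within 1 kb of STX17-DT, a transcript named as divergent from STX17. The other syntaxin genes, among them STX2, STX3, STX5, STX6, STX8, STX12 and STX16, had none, although STX5 missed the window by a small margin, with a summit 1214 bp away at NXF1.

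SNAP47 encodes a SNAP25-like protein found in many tissues, and its gene on chromosome 1 (227728168 to 227781226, plus strand) held 2 summits. The stronger, at 227728306 with a score of 5.20, was 138 bp inside the outer end and at position -325 relative to the nearest listed start. The other, at 227735377 with a score of 3.66, stood at -58 relative to a downstream start and at -75 relative to the start of JMJD4, a JmjC-domain hydroxylase gene that runs the other way. SNAP23, SNAP25, SNAP29 and SNAP91 had no summit; SNAP91 shares the symbol alone and encodes AP180, a clathrin assembly protein of vesicle recycling. SNAP25, the t-SNARE of neuronal synapses, is thus a member without one, as are SYT1 and SYT2, the calcium sensors of fast release. This does not hold for all genes of vesicle fusion, as STX1A (4.63) and CPLX2 (18.8), left out by the rule, each have a summit.

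SYT7 was the synaptotagmin gene with summits. It encodes a slow, high-affinity calcium sensor that also acts in lysosome exocytosis. Its summits on chromosome 11 were at 61567385, 21002 bp inside the gene (61513714 to 61588387) with a score of 3.70, and at 61588027, 360 bp from the outer end with a score of 1.91. The RefSeq promoter table lists no start for SYT7, GRIN1 or STX17, so these summits are placed by outer ends alone. The other 17 synaptotagmin genes, SYT1 to SYT6, SYT8 to SYT17 and SYT15B, had no summit; SYT12 came nearest at 6.24 kb. SYT15 and SYT15B are close copies of each other, and reads from such copies may be lost or shared.

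Of the members that the symbol rule added, SYTL3 had a summit, and SYTL1, SYTL2, SYTL4, SYTL5 and SNAPC1 to SNAPC5 did not. SYTL3 encodes a RAB27-binding protein of secretory granules. Its summit at 158644504 on chromosome 6 scored 5.12. It was 432 bp outside the gene and at position -5550 relative to its nearest listed start, but 239 bp inside the start of DYNLT1, a dynein light chain gene.

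Some summits at members lay at a neighbouring gene as well. Of the 12 summits 5 (41.7%, interval 15.2 to 72.3) also lay in or within 1 kb of another protein-coding gene. Of the 2435 summits at protein-coding genes 19.8% did, a value inside the members' interval. Those at GRIN1, GRIN2D, SYTL3 and STX18 were nearer to a listed start of the neighbour than to one of the member, GRIN1 having no listed start. Without these 4 summits, a count made after seeing the values, 6 of 127 members (4.72%, interval 1.75 to 9.999) had a summit, against 11.8% of all protein-coding genes counted in the same way, and CHRM4 was the receptor gene left.

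**Figure D2:**
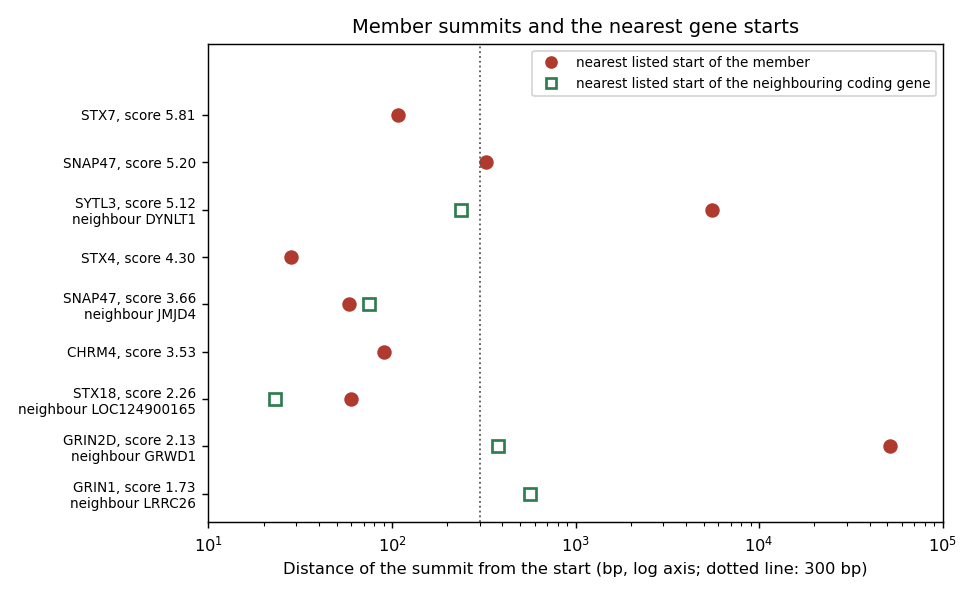
Distance (bp, log axis) of 9 member summits from the nearest listed start of the member (filled circles) and of the neighbouring protein-coding gene (open squares), ordered by score; the 2 SYT7 summits and that at STX17 have no listed start to plot. STX7, STX4, CHRM4, STX18 and the weaker SNAP47 summit sit within 300 bp of the member's start. STX18, GRIN2D and SYTL3 sit nearer to a neighbour's start, and GRIN1 has only a neighbour's start to plot.

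A listed start was at hand for 98 of the 127 members, and 5 of them (5.10%, interval 1.68 to 11.5) had a summit within 300 bp of it, against 10.3% of the protein-coding genes with a listed start. By class these were 1 of 59 receptor genes (1.69%, interval 0.04 to 9.09) and 4 of 17 syntaxin and SNAP genes (23.5%, interval 6.81 to 49.9). The promoters of these 5 genes are shown because they are the places where a summit and a member's own start coincide. Each runs 5′ to 3′ on the gene's strand from 250 bases before to 50 after the start used, from RefSeq (GRCh38.p14). Capitals mark the 21 bases centred on the summit.
STX7, chr6:132512734-132513033, minus strand, summit at -108: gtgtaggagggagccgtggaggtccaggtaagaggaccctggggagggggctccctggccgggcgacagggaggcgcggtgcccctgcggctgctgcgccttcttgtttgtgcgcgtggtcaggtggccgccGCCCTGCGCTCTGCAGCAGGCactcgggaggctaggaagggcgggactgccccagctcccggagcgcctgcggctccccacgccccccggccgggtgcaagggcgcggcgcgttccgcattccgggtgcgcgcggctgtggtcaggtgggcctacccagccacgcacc
STX4, chr16:31032845-31033144, plus strand, summit at 28: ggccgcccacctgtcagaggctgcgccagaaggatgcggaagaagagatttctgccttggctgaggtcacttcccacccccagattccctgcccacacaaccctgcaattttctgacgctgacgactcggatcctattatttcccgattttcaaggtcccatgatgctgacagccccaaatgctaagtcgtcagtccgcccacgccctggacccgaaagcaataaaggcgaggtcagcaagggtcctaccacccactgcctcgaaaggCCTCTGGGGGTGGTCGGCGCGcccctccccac
SNAP47, chr1:227735185-227735484, plus strand, summit at -58: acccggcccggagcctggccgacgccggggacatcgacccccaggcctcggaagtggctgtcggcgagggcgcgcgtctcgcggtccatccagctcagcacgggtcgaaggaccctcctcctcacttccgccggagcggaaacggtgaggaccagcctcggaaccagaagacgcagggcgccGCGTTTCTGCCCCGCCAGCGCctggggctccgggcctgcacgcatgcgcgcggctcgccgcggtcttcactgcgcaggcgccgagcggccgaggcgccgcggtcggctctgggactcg
CHRM4, chr11:46391727-46392026, minus strand, summit at -91: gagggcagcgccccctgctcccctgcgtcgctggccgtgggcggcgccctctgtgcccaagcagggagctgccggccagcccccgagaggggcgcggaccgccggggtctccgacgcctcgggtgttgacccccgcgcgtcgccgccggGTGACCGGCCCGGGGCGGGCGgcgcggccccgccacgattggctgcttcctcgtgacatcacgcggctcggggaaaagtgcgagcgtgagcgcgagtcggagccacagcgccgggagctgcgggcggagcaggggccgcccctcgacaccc
STX18, chr4:4541999-4542298, minus strand, summit at -60: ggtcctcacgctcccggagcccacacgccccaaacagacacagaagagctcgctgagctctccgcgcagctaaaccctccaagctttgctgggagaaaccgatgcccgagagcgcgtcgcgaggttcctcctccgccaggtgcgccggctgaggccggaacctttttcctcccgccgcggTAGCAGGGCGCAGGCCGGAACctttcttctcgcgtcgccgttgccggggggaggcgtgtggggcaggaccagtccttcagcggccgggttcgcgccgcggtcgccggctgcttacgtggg

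The shown promoters were mostly rich in GC and CpG. GC content was 74.7% at STX7, 59.7% at STX4, 74.7% at SNAP47, 78.3% at CHRM4 and 69.0% at STX18, with 30, 16, 45, 44 and 36 CpG dinucleotides in the same order. Their observed-to-expected CpG ratio had a median of 0.96 (0.62 to 1.08), against 0.66 (quartiles 0.38 and 0.85) for the 142 member promoters without a summit. Over all protein-coding promoters it was 0.92 for the 1112 with a summit in the window and 0.72 for the 21087 without, which is the same direction as among members. The 142 member promoters without a summit in the window belong to 97 genes. They include other listed starts of STX7, STX4, SNAP47 and STX18, so they are not all promoters of genes without a summit. The 85 receptor promoters had a median ratio of 0.56 and a GC content of 58.0%. For the 29 syntaxin and SNAP promoters these medians were 0.84 and 67.0%. The part of base composition in the summit counts was not tested.

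**Figure D3:**
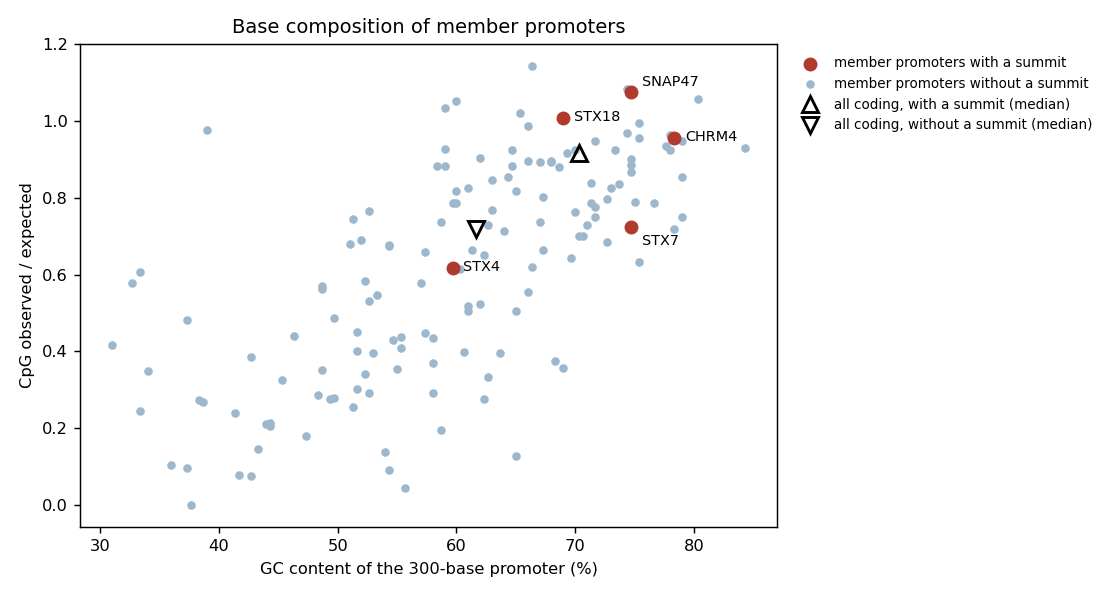
Observed-to-expected CpG ratio against GC content (%) of the 147 promoters of 300 bases listed for members, with those that hold a summit as large red points, and the medians of all protein-coding promoters with and without a summit as triangles. STX7, SNAP47, CHRM4 and STX18 lie at 69.0% GC or more, and STX4 lies among the promoters without a summit.

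Short motifs were searched on both strands of the listed promoters. The GC box GGGCGG, bound by SP and KLF factors, occurred in 3 of the 5 shown promoters, in 53.1% of the 147 member promoters and in 56.3% of all protein-coding promoters. Among protein-coding promoters with a summit it was in 83.8%. CHRM4 held it 5 times, and the copies from -89 to -84 and from -85 to -80, which overlap, lie beside the summit at -91. STX7 held it from -80 to -75 and from -120 to -115, and STX4 from -248 to -243 and from -55 to -50. CHRM4 also held CCAAT, the letters of the CCAAT box, from -64 to -60, a match present in 31.3% of member promoters and 34.7% of all. SNAP47 and STX18 held none of the 7 motifs in this window.
The remaining motifs were in none of the 5. CACGTG, the E box, was in 9.52% of member promoters and 8.34% of all, and TGACGTCA, the cyclic AMP element, in 0.68% and 2.26%. CCGGAAG, the core of ETS sites, was in 3.40% and 12.8%. CAGCACC was in 9.52% and 7.83%, while GGACAGC was in 8.16% and 6.64%; these are pieces of the RE1 element of REST, a repressor of neuronal genes. Such matches describe letters and do not show that a factor was bound.

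Scores of member summits were spread over much of the list. The score is the authors' own, read as −log10 q, and ranks summits within this list alone. The 12 scores had a median of 3.60 (interval from order statistics 1.91 to 5.12), against 3.72 (3.68 to 3.76) for the 2435 summits at protein-coding genes, a value inside the members' interval. The highest were STX7, ranked 421 of 2697, SNAP47 at 554 and SYTL3 at 650. At the other end, STX18 ranked 2365, GRIN2D 2434, the weaker SYT7 summit 2551, GRIN1 2595 and STX17 2628. In all 4 member summits were at or above the list's median and 8 below it, and 3 scored 5 or more, as did 25.8% of the list. Of the relatives left out by the rule, CPLX2 scored 18.8, HTR5A 17.8 and STX1A 4.63, so the choice of members shapes how high their scores reach.

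**Figure D4:**
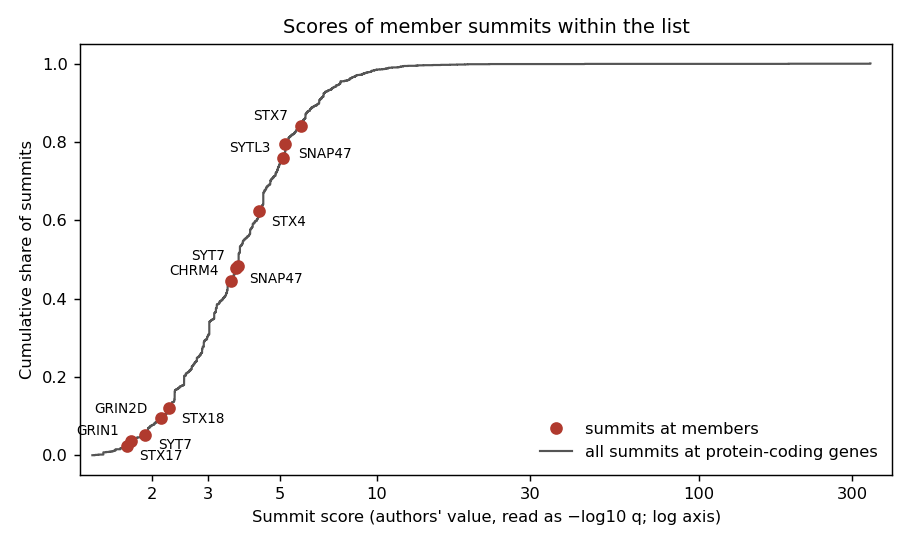
Cumulative share of summits (y axis) against score (authors' value, log axis) for the 12 member summits, drawn as named points on the curve of all summits at protein-coding genes. The points run from STX17 at 1.67 to STX7 at 5.81, with GRIN1 and GRIN2D near the foot of the curve.

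Receptor genes as a class had a longer median length than all protein-coding genes, but not in every family. The median length of members was 52.8 kb (quartiles 19.2 and 165 kb), against 24.1 kb (8.54 and 65.1 kb) for all protein-coding genes, and 76.9 kb for the receptor genes. Of the 9 receptor families, the nicotinic (median 19506 bp) and serotonin receptors (21210 bp) were below the median of all protein-coding genes. All other receptor families were above it. A summit fell at 2 of 45 members of 100 kb and over (4.44%, interval 0.54 to 15.2), where 13.6% of all such genes had one. Between 20 and 100 kb it was 6 of 47 (12.8%, interval 4.83 to 25.7) against 16.2%, and under 20 kb 2 of 35 (5.71%, interval 0.70 to 19.2) against 11.8%. The members' share was below that of all genes in each length class, and each interval holds the value for all genes. The length classes were counted over all members and not for receptor genes alone. The part of gene length in the summit counts was not tested.

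Several receptor gene clusters held no summit, and neither did the pair SNAPC1 and SYT16, which are not receptor genes, over 0.35 Mb on chromosome 14. The GABA-A receptor genes GABRG1, GABRA2, GABRA4 and GABRB1 lie together on chromosome 4 over 1.39 Mb, with no summit inside, the next one 6.67 Mb below and 0.59 Mb above. The nicotinic cluster CHRNA5, CHRNA3 and CHRNB4 on chromosome 15 and the serotonin clusters HTR3D, HTR3C and HTR3E on chromosome 3 and HTR3B and HTR3A on chromosome 11 had no summit inside either. These are short, at 0.096, 0.075 and 0.091 Mb in the same order. Spans of like length elsewhere were not counted, so an empty cluster is not shown to be unusual. In contrast, 8 summits fell between the outer ends of SNAPC4 and GRIN1 on chromosome 9, none of them inside either gene. The share of all protein-coding genes with a summit was 6.88% on chromosome 4, 9.40% on chromosome 15, 13.1% on chromosomes 3 and 9, and 20.9% on chromosome 11. Over all members, 7 of 87 had one on the chromosomes below the 13.8% of the whole genome and 3 of 40 on the others. Of the chromosomes with members, the former ran from 4.44% of all protein-coding genes (chromosome 18) to 13.1% (chromosome 3). The others ran from 14.05% (chromosome 14) to 27.2% (chromosome 20). The member counts of these groups thus stand beside unlike shares of all genes, and pooled shares of all genes were not computed.

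Over all members the median distance to the nearest summit was 292 kb, against 184 kb for all protein-coding genes. It was more than 1 Mb away for 39 of 127 members (30.7%) and for 19.5% of all protein-coding genes on chromosomes with a summit. The medians were 431 kb for receptor genes and 45.3 kb for syntaxin and SNAP genes. The remotest were CPLX4 at 37.6 Mb and SYT4 at 21.6 Mb, both on chromosome 18, and GRIA2, an AMPA receptor gene, at 26.1 Mb on chromosome 4. Just outside the 1 kb window were STX5 (1214 bp), CPLX1 (2925 bp), the kainate receptor gene GRIK5 (5.90 kb, a summit at ZNF574), SYT12, STX12 (6.53 kb) and the muscle nicotinic gene CHRNB1 (8.07 kb).

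**Figure D5:**
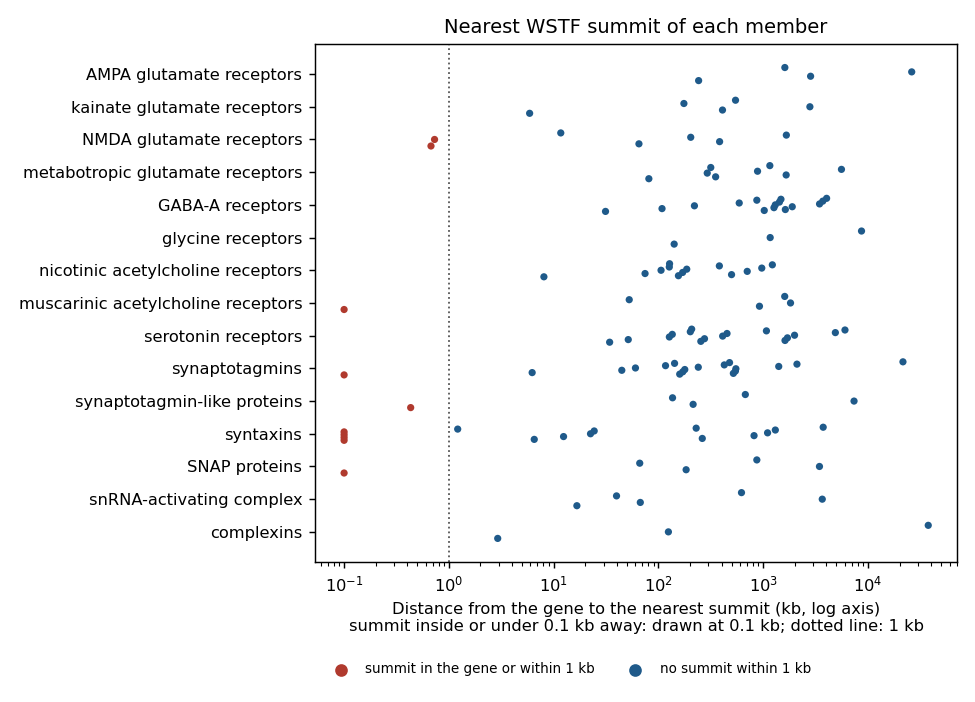
Distance (kb, log axis) from each of the 127 members to its nearest summit, by family; red points have a summit inside or up to 1 kb away, blue points do not, and genes with a summit inside or under 0.1 kb away are drawn at 0.1 kb. Most GABA-A and AMPA receptor genes lie near or beyond 1 Mb, and the syntaxins include the shortest distances.

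Other synaptic genes, outside the symbol rule, were counted in the same way. Of 123 such genes 11 had a summit (8.94%, interval 4.55 to 15.4), against the 13.8% of all protein-coding genes. By group these were 6 of 24 receptor scaffold genes, 2 of 13 active zone genes, 1 of 28 genes of SNARE partners and regulators, 1 of 18 genes of vesicle membrane proteins, 1 of 24 further receptor genes and 0 of 16 transmitter transporter genes. STXBP5, which encodes tomosyn, a brake on SNARE assembly, scored highest (6.04, at -739 relative to its listed start). P2RX5, an ATP-gated channel gene with no listed start, scored 5.91 at 5 bp from an outer end of the gene. That summit also lay in or within 1 kb of ITGAE, 77348 bp from the listed start of ITGAE. SYNGR2, which encodes a broadly expressed synaptogyrin, scored 4.26 at 139 bp inside its start.
Among the scaffolds, which anchor receptors under the postsynaptic membrane, DLG4, the gene of the postsynaptic protein PSD-95, had summits of 4.0 at -33 and 3.11 inside the gene; the first also lay 145 bp inside the start of ACADVL, a fatty acid oxidation gene. The summits at the scaffold genes HOMER2 (2.76), GPHN (2.52) and NLGN2 (4.68) were nearer to a listed start of a neighbour (RAMAC, PLEK2 and TMEM256) than to their own. SHANK1 (3.72) and SHANK2 (3.02 and 2.62) completed the scaffolds. Of the active zone genes, PPFIA1 had a summit of 3.63 at -9, and PPFIA3 one of 2.36 that was nearer to the start of C19orf73 than to its own.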

How the data were processed

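SW620 chromatin was immunoprecipitated with an antibody to WSTF. The submitters' processing notes name hg38, MACS2 2.2.7.1, Bowtie2 2.4.4 and Trimmomatic 0.39, and the design text says that peaks were called against input DNA. Pooling of replicates is not stated there. The deposited file gives 1 base per summit and a score, read as −log10 of the q-value because its values start at 1.31, just above the 1.30 that a q of 0.05 gives. Depth is unknown.

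Summits were set against protein-coding genes of chromosomes 1 to 22, X and Y in RefSeq GRCh38.p14, which shares hg38 coordinates, and against the starts in its promoter table (15843 genes). All 123 genes of the synaptic list matched. Shares carry exact Clopper-Pearson intervals and medians binomial order-statistic intervals (scipy 1.17.1, pandas 2.3.3). With 1 list there was no test between groups, and no p-value was computed. Placement was tested on simulated data. Some members without a summit are counted but not reported by name here. Every member with a summit is named, and promoters are shown for members with a summit within 300 bp of a listed start. Members and lists were chosen with earlier results of these data known. Windows of 0 bp to 10 kb, score thresholds, narrower gene sets and assignment to 1 gene were tried as alternatives.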

Additional observations from a re-analysis of the deposited data

How the results depend on the processing

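The share of members with a summit, 7.87%, kept within 1.5 times under windows of 500 bp and 5 kb and without SNAPC and SYTL genes. It was 4.72% with a window of 0 bp and 12.6% with 10 kb, where all protein-coding genes gave 8.12% and 17.8%. Summits from the median score up gave 3.15% (all protein-coding genes 7.32%) and those of 5 or more 2.36% (3.70%). It was 3.95% for receptor genes alone and 14.6% for SYT, STX, SNAP and CPLX genes alone, both against 13.8%. With each summit assigned to 1 gene it was 4.72% (11.6%), as it was without summits closer to a neighbour's start (11.8%), an alternative chosen after seeing the data. The share at gene ends moved alike, to 12.6% with a window of 10 kb, where all protein-coding genes gave 17.0%. The score thresholds gave 3.15% (all protein-coding genes 6.12%) and 2.36% (3.11%) at gene ends. There, receptor genes alone gave 3.95% and SYT, STX, SNAP and CPLX genes alone 14.6%, both against 11.6%. Assignment of each summit to 1 gene gave 4.72% (9.67%). Apart from the alternative chosen after seeing the data, the members' share was below that of all protein-coding genes in 9 of 10. The exception was the set of SYT, STX, SNAP and CPLX genes. These alternatives recount the same list of summits, so they are not independent of the main count. The median score, 3.60, was 5.16 and 5.20 under the score thresholds, which select on the score (all protein-coding genes 4.99 and 6.03). The median distance to a gene end was 396 bp (interval 91 to 730), and the 238 bp of all protein-coding genes lies inside the interval. With a window of 10 kb, which admits remoter summits, this distance was 972 bp, against 507.5 bp for all protein-coding genes. No paired analysis was possible because 1 list without replicates was analysed. With unknown depth, a gene without a summit may hold WSTF below the calling threshold.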

Other observations

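Non-coding genes named after members were counted after the members' values had been seen. RefSeq lists 23 antisense, divergent or intronic transcripts named after 17 of the members, and 3 of them (13.04%, interval 2.78 to 33.6) had a summit inside or up to 1 kb away. Of the 2696 such transcripts named after any protein-coding gene, 11.05% had one. The summits at STX17-DT (1.67) and STX18-AS1 (2.26) are those already given for STX17 and STX18. SNAP25-AS1, the antisense gene of the neuronal t-SNARE gene on chromosome 20, had a summit of 3.76. SNAP25 itself had none, and the summit nearest to SNAP25 was 184 kb away. The antisense genes of receptors, among them those of CHRM1, CHRM3, GABRA6, GABRG3, GRIK1, GRM3, GRM5, GRM7, GRM8, HTR2A and HTR3E, had none.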
